A study of Mus musculus with 2 samples.

Results

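The nuclear subunit genes of respiratory complexes II to V were described in mouse hippocampus. Members were chosen by symbol: genes named Sdha to Sdhd, Uqcr, Cyc1, Cox4 to Cox8 with an isoform letter, or Atp5, each with at least 1 transcript annotated as protein_coding. This gave 49 gene identifiers of 55536 in the tables, with 4 in complex II, 9 in complex III, 18 in complex IV and 18 in complex V. They carry 48 symbols, because Atp5o has 2 identifiers. No measured value entered the choice. The rule reaches Cox7a2l, which helps build supercomplexes, and Atp5s, known as factor B, neither of which is counted as a classical structural subunit, and it leaves out Ndufa4, Usmg5 and Higd2a, which are described separately. Another 8 symbols matched without a protein_coding transcript and are pseudogenes.

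The samples were 2 libraries of total RNA from hippocampus of aged female B6CASTF1/J mice, first-generation hybrids of C57BL/6J and CAST/EiJ, supplied by The Jackson Laboratory. The animals were 18 to 20 months old, had no treatment in the labels, and gave 300 ng of RNA per library. Ribosomal RNA was reduced and ERCC spike-ins were added. The labels call the libraries biological replicates, yet both carry the same donor label and separate biosample labels. The labels therefore do not settle whether 2 animals were sampled, and the spread between the libraries may be technical. With 1 group there is no contrast and no p-value, and values are given per library or as mean ± SD (n = 2).

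Complex II, succinate dehydrogenase, feeds electrons from the citric acid cycle to ubiquinone. Complex III passes them to cytochrome c, complex IV (cytochrome c oxidase) passes them on to oxygen, and complex V (ATP synthase) uses the proton gradient to make ATP. Subunits of complexes III to V come from both the nuclear and the mitochondrial genome, whereas those of complex II are all nuclear. Several complex IV subunits have a ubiquitous isoform and a second one known from muscle, testis or lung. Neurons depend heavily on oxidative phosphorylation.

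Gene-assigned expected counts, which are estimated read numbers that need not be whole, summed to 35358140 in replicate 1 and 36307291 in replicate 2. Markers of excitatory neurons lay high, with a median of 580.0 and 532 TPM, and those of astrocytes at 74.5 and 74.9 TPM. TPM is an abundance corrected for transcript length, so it can be compared between genes. Oligodendrocyte markers differed between libraries (a median of 169 and 122 TPM, 3 of 4 genes over 1.2-fold apart), as did the choroid plexus marker Ttr at 150.4 and 49.1 TPM. In bulk tissue, fewer cells of a type and less RNA per cell cannot be told apart.

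The members were abundant as a group. In the RSEM-layout gene table they held 0.697% of all TPM in replicate 1 and 0.681% in replicate 2, and 1.55% and 1.57% of the TPM of protein-coding genes. In the kallisto-layout table, a second deposited quantification, they held 1.35% and 1.37% of all TPM. Levels below are from the RSEM layout unless kallisto is named. A TPM of 1 or higher in each library was reached by 45 of the 49 members, beside 12733 of 22028 protein-coding genes. The other 4 members were Cox4i2, Cox7b2, Cox8c and the second Atp5o identifier. Among 22028 protein-coding genes ranked by mean TPM, 33 members stood in the top 1000 and 3 in the top 100. These 3 were Atp5b at rank 35, Cox4i1 at rank 69 and Cox8a at rank 78. Of the top 1000 places, complex II held 1, complex III 7, complex IV 10 and complex V 15.

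**Figure D1:**
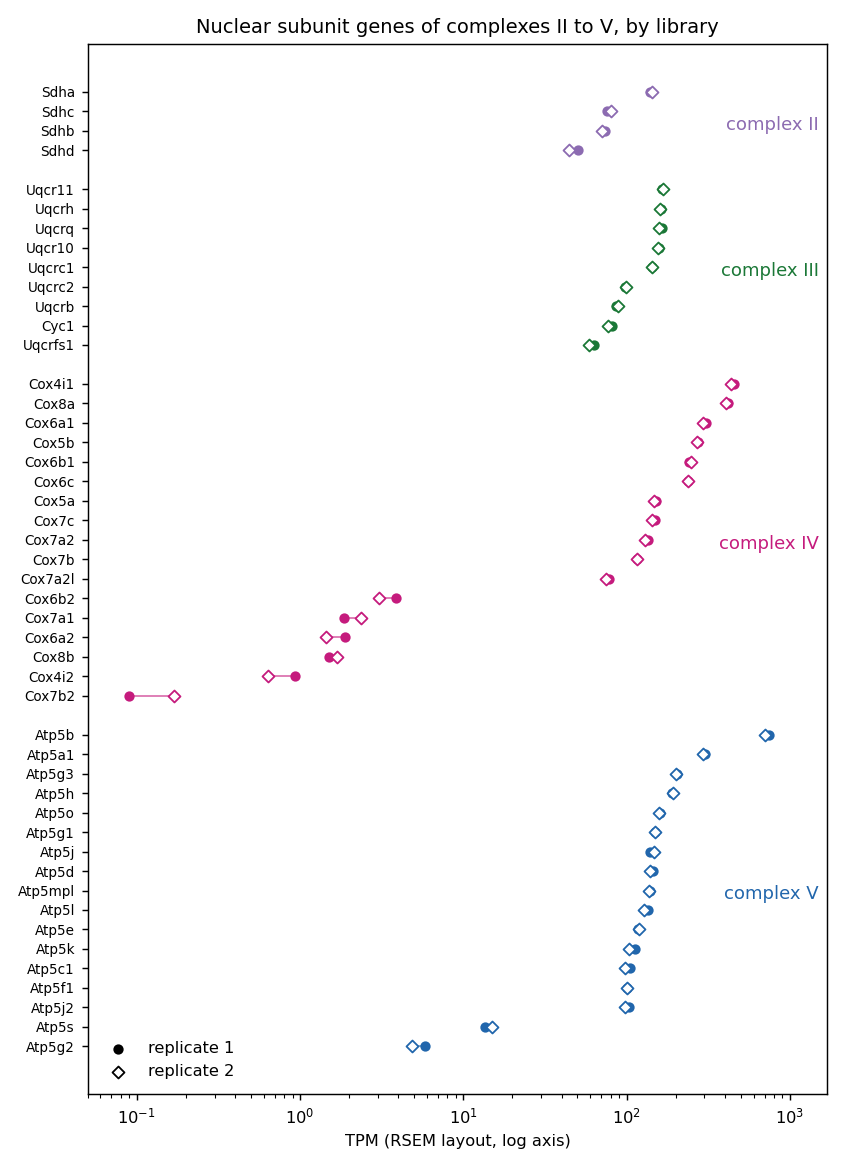
TPM of each member (log axis) in replicate 1 (filled circles) and replicate 2 (open diamonds), by complex. Cox8c and the second Atp5o identifier are at 0 and not drawn. Both points of a gene lie close together for the abundant members, such as Atp5b at 747 and 704 TPM, and farther apart for several restricted isoforms, such as Cox7b2 at 0.090 and 0.17 TPM.

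Complex II was the lowest of the 4 by median level. The median of its 4 genes was 74.7 TPM in replicate 1 and 75.3 in replicate 2, against 143.7 and 142.4 for complex III, 125.4 and 122.9 for complex IV and 137.9 and 133.0 for complex V. Sdha, the flavoprotein that oxidises succinate, stood at 140.2 and 143.6 TPM. Sdhb, the iron-sulfur subunit, was at 73.9 and 70.7 TPM. Sdha was therefore 1.90 and 2.03 times as abundant as Sdhb, with which it forms the catalytic head. The membrane anchors Sdhc and Sdhd were at 75.4 and 79.8 TPM and at 50.1 and 44.4 TPM. Sdhc and Sdhb differed by little more than their spread (77.6 ± 3.14 and 72.3 ± 2.28 TPM), whereas kallisto placed Sdhb higher, at 139.9 ± 0.081 TPM against 78.5 ± 4.06 for Sdhc. Sdhd was the lowest in both libraries and both layouts.

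In complex III the highest member was 2.74 times the lowest. Its small supernumerary subunits led it. Uqcr11 was at 165.6 and 168.3 TPM, the hinge gene Uqcrh at 162.9 and 160.4 TPM, and Uqcrq at 163.9 and 158.8 TPM. Uqcrh and Uqcrq overlapped between libraries. Uqcr10 was at 157 ± 0.969 TPM and Uqcrb at 87.8 ± 2.09 TPM. The core gene Uqcrc1 stood at 143.7 and 142.4 TPM, above the other core gene Uqcrc2 at 98.1 and 99.5 TPM. The electron-carrying subunits made in the nucleus were the lowest in this layout: Cyc1, cytochrome c1, was at 81.5 and 76.7 TPM and Uqcrfs1, the Rieske iron-sulfur protein, at 63.0 and 59.0 TPM. By kallisto Uqcrfs1 was again the lowest at 95.1 and 94.2 TPM, but Cyc1, at 216 and 215 TPM, stood above the small subunit gene Uqcrb at 157 and 166 TPM.

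Complex IV held both very high and nearly silent genes. Cox4i1, the subunit 4 isoform of most tissues (chromosome 8, 120668222 to 120674207, mm10, plus strand), was at 456 and 439 TPM. Cox8a, the ubiquitous subunit 8 isoform (chromosome 19, 7215153 to 7217616, minus strand), was at 416 and 408 TPM. Cox6a1 followed at 307 and 292 TPM and Cox5b, a zinc-binding subunit, at 274 and 271 TPM. These 4 did not overlap with each other between libraries, yet their order depended on the layout. In the kallisto layout Cox8a, at 928 and 897 TPM, stood above Cox4i1 at 811 and 850.5 TPM, and Cox6c, at 621 and 638 TPM, above Cox6a1 at 593 and 582 TPM. Cox6b1 and Cox6c, at 245 ± 3.95 and 238 ± 2.18 TPM, were separated by little more than their spread, whereas kallisto placed Cox6b1 lower, at 308 and 328 TPM. Cox5a and Cox7c, at 149 ± 2.55 and 146 ± 4.96 TPM, overlapped, whereas kallisto gave 236 ± 4.37 and 509 ± 1.73 TPM. In the RSEM layout Cox7a2 and Cox7b were at 132 ± 4.17 and 116 ± 0.658 TPM. The lowest of the 11 genes with a mean count of 50 or more was Cox7a2l at 78.2 and 74.9 TPM. Restricted to these 11, the complex had a median of 239 and 236 TPM.

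Complex V was led by its catalytic core. Atp5b, the F1 beta subunit (chromosome 10, 128083273 to 128090391, mm10, plus strand), was the highest member at 747 and 704 TPM. Atp5a1, the F1 alpha subunit, was at 302 and 293 TPM. The enzyme contains equal numbers of both subunits, and Atp5b RNA was 2.47 and 2.40 times that of Atp5a1. By kallisto this ratio was 2.08 and 1.94, and Atp5h reached the level of Atp5a1 (532 ± 30.7 and 528 ± 4.71 TPM). The rotor ring gene Atp5g3 was at 202 and 201 TPM. The peripheral stalk genes Atp5h, Atp5o, Atp5j and Atp5f1 were at 191 ± 2.79, 159 ± 2.58, 143 ± 5.25 and 101 ± 0.120 TPM. The central stalk genes Atp5d, Atp5e and Atp5c1 were at 142 ± 4.58, 118 ± 1.85 and 102 ± 5.09 TPM. The membrane subunit genes Atp5mpl, Atp5l, Atp5k and Atp5j2 lay between 100.4 and 139 TPM on average. Without Atp5s and Atp5g2, the 15 members with a mean count of 50 or more spanned 7.23-fold. Atp5s was at 13.5 and 15.0 TPM, and Atp5g2 was the lowest of the 17 counted at 5.87 and 4.85 TPM in this layout.

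The restricted isoforms of complex IV were present at traces. Together 7 such genes held 10.2 TPM in replicate 1 and 9.34 TPM in replicate 2, or 0.395% and 0.372% of the TPM of complex IV, from 101 and 97 counts. Cox4i2, known from lung and induced by hypoxia (chromosome 2, 152754173 to 152765037, mm10, plus strand), had 15 and 11 counts, or 0.93 and 0.64 TPM. Cox4i1 exceeded it 490.5-fold in replicate 1 (exact 95% interval 298 to 879) and 685-fold in replicate 2 (385 to 1380.5). The interval of each library contains the ratio of the other. These reads carry no molecular identifiers, so intervals cover counting error only.

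The muscle isoforms were likewise far below their partners. Cox6a2 had 28 and 23 counts, and Cox6a1 exceeded it 162-fold (112 to 245) and 201-fold (134 to 318). Cox7a1 had 14 and 20 counts, and Cox7a2 exceeded it 72.4-fold (43.1 to 133) and 54.9-fold (35.4 to 90.1). Cox8b, also known from brown fat, had 10 and 12 counts, and Cox8a exceeded it 277-fold (150.5 to 578) and 241-fold (138 to 468). In kallisto TPM these 3 ratios were 243 and 302, 112 and 165, and 399 and 769, so their size depends on the layout, and the counts behind the restricted isoforms are few. The 8 muscle markers summed to 9.33 and 8.47 TPM. Of these, 2 were detected, the myosin gene Myh7 with 227 and 239 counts and the actin gene Acta1 with 97 and 95, while the muscle creatine kinase gene Ckm had 0 and 1. Of the brown fat markers, the uncoupling protein gene Ucp1 had 0 and 1 counts and Cidea was at 3.12 and 3.97 TPM. Pericyte markers summed to 27.2 and 27.3 TPM, but single genes differed between libraries in opposite directions. Pdgfrb and Abcc9 were 1.27-fold and 1.30-fold higher in replicate 2. Rgs5, the highest of the 6 at 17.5 and 15.6 TPM, was lower there at 0.919-fold. Genes listed for parvalbumin interneurons summed to 229 and 223 TPM. Most of that sum was Gad1, at 153 and 148 TPM, so it is not a measure of parvalbumin cells alone. Kcnc1 was at 47.25 and 46.95 TPM, Pvalb itself at 25.25 and 24.4 TPM, and Tac1 at 3.75 and 3.83 TPM. The part of any of these cells in the traces was not tested.

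The testis isoforms included the lowest genes. Cox6b2 was the highest restricted isoform at 3.88 and 3.03 TPM from 33 and 29 counts, and Cox6b1 exceeded it 62.3-fold (44.3 to 90.7) and 81.7-fold (56.7 to 122). Cox7b2 had 1 and 2 counts, so the ratio of Cox7b to it, 1282 and 684, has counting intervals of 234 to 51532 and of 194 to 5805, and kallisto gave 338 and 703. Cox8c had 0 counts in both libraries. A count of 0 allows up to 3 counts, or 0.328 and 0.306 TPM here, so Cox8a was at least 1270.0-fold and 1330.1-fold higher. Of 5 male germ cell markers, 4 had 0 counts in both libraries, and the other, Odf1, had 1 and 0. Over the 7 pairs the median log2 ratio of the ubiquitous over the restricted isoform, with a pseudocount of 0.1 TPM, was 8.02 and 7.83. By contrast Cox7a2 exceeded its relative Cox7a2l only 1.73-fold in each library.

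**Figure D2:**
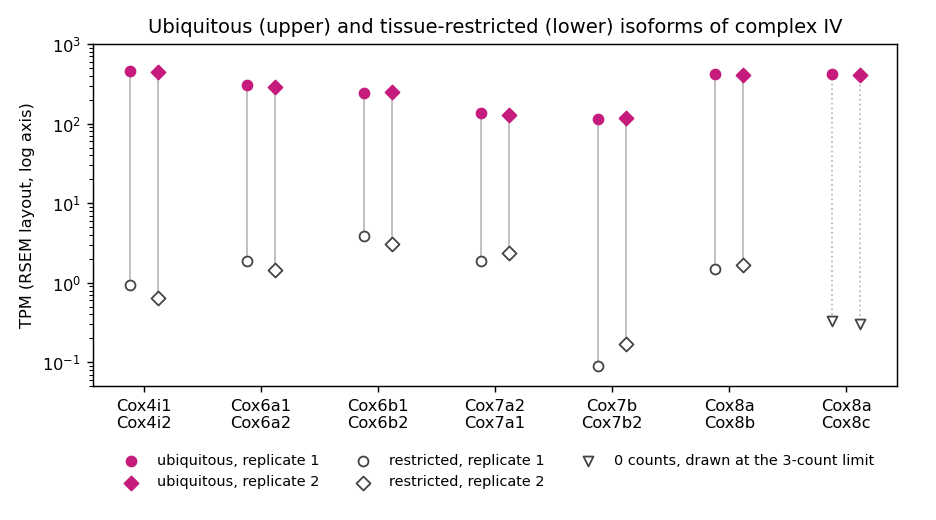
TPM (log axis) of the ubiquitous isoform (filled) and the restricted isoform (open) in 7 pairs, with circles for replicate 1 and diamonds for replicate 2. Triangles mark Cox8c, which had 0 counts and is drawn at the 3-count limit. The lowest filled symbol is Cox7b at 115 TPM and the highest open one Cox6b2 at 3.88 TPM.

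Subunit c of the ATP synthase rotor is made from 3 genes, which encode the same mature protein behind different targeting peptides. In the RSEM layout Atp5g3 gave 56.6% of their summed TPM in both libraries, Atp5g1 41.8% and 42.1%, and Atp5g2 1.64% and 1.37%. In the kallisto layout Atp5g2 gave 24.4% and 24.1%, with Atp5g3 at 46.7% and 47.4% and Atp5g1 at 28.9% and 28.5%. The order of the 3 genes was the same in both layouts.

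A near-identical copy of Atp5g2 accompanied this difference. Gm10175, annotated as a transcribed processed pseudogene on chromosome 7 (23946646 to 23947290, mm10, minus strand), aligned to Atp5g2 transcript 202 over 645 bases, all 645 identical, while Atp5g2 itself lies on chromosome 15 (102662864 to 102672352, minus strand). In the RSEM layout Atp5g2 had 93.0 and 81.6 expected counts and its copies 1425 and 1484, or 93.9% and 94.8% of the sum. In the kallisto layout Atp5g2 had 1330 and 1411 estimated counts and its copies 0. The copy holds no base in this stretch by which a read could be assigned, so both the low and the high value of Atp5g2 are uncertain. Relative to the median protein-coding gene, Atp5g2 stood 3.86 higher on the log2 scale in kallisto counts than in RSEM counts, and -0.28 with the copies summed into it, a sum chosen after seeing the data. It was the 1 of 41 members over 2-fold from that median, against 0.959% of protein-coding genes (124 of 12928). The remaining members lay between -0.97 (Uqcrq) and 0.20 (Cox7c).

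The first 60 coding bases of Atp5g2 and Cox7c are shown with their copies because no letter separates them, and windows of Atp5h and Cox5b because few letters do. Capitals mark the bases that differ within each pair. All are from GENCODE M21 transcripts (mm10), on the transcript strand, with coding positions 1 to 60 for Atp5g2 and Cox7c, 10 to 69 for Atp5h and 184 to 243 for Cox5b.
Atp5g2: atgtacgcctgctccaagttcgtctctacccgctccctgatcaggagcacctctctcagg
Gm10175: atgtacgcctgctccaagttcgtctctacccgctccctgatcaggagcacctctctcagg
Cox7c: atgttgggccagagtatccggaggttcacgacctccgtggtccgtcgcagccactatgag
Gm12338: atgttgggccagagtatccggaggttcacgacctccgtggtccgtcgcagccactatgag
Atp5h: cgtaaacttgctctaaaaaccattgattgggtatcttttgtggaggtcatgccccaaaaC
Gm10250: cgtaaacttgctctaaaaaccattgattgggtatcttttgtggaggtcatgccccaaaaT
Cox5b: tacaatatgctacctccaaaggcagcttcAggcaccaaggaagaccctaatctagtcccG
Gm11273: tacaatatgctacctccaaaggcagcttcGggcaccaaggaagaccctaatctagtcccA

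Other members had copies of this kind as well, and how many genes in all have them was not analysed here. By stretches of 31 bases, 13 members shared at least 100 such stretches with a gene elsewhere in the genome, in all 24 copies, of which 23 are processed pseudogenes and 6 had no counts at all. For 7 members the copies held over 5% of the combined RSEM counts in both libraries. Cox7c had 1651 and 1699 counts and its 2 copies 942 and 986, or 36.3% and 36.7%. Most of these fell on Gm12338 (chromosome 11, 75599763 to 75599954, minus strand), which is identical over 192 of 192 bases and overlaps the gene Pitpna on the opposite strand. The share of the copies was 22.5% and 22.9% for Atp5l, 16.4% and 17.5% for Atp5h, and 15.5% and 15.8% for Cox7a2l. It was 9.26% and 6.99% for Atp5g1 and 7.85% and 6.32% for Cox5b. In the kallisto layout the same copies held at most 2.16%, for Cox7a2l. The exception was Atp5o, whose pseudogene Gm5436 held 0.95% and 1.06% in the RSEM layout and 5.28% and 5.6% in the kallisto layout. Levels of these members are uncertain to that extent. The second Atp5o identifier, whose transcript overlaps the gene Donson, had 0 counts in the RSEM layout and 4.96 and 0 in the kallisto layout.

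**Figure D3:**
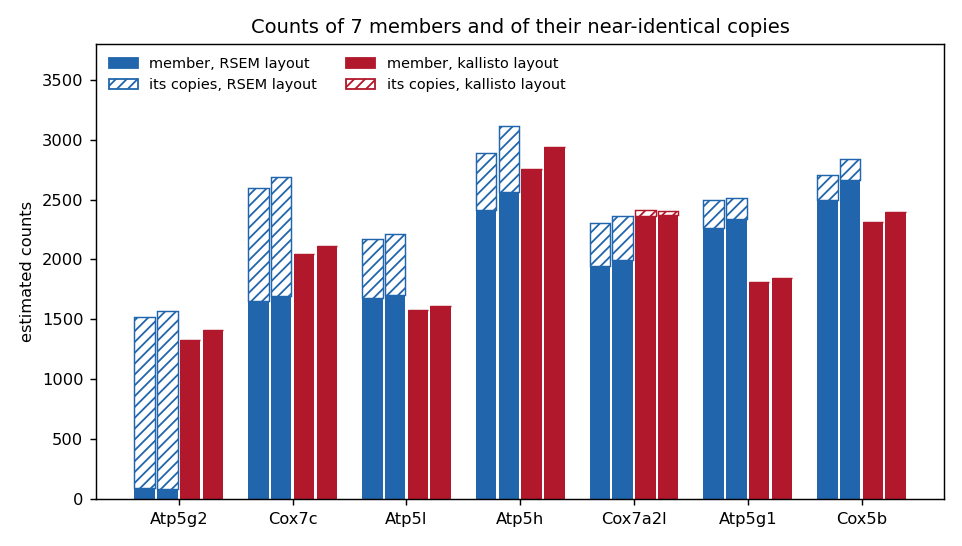
Estimated counts of 7 members (solid) with those of their copies stacked on top (hatched), in the RSEM layout (blue) and the kallisto layout (red), replicate 1 left and replicate 2 right. The hatched part fills most of the RSEM bars of Atp5g2 and is nearly absent from the kallisto bars.

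Most members were represented by 1 dominant transcript. Among the 41 members with a mean count of 50 or more, the leading transcript took a median of 94.2% of the gene's RSEM TPM, and at least 90% in 25 of them. Its identity matched between libraries for 39 members, and between libraries and layouts for 23. Matching shares over all genes were not computed, so the transcript counts here and in the next paragraph do not set the members apart. The leading transcript was annotated protein_coding for 38 members in the RSEM layout. For Atp5j, stalk factor F6, it was Atp5j-208, a retained_intron transcript, at 80.6% and 82.0%. For Cox5b it was Cox5b-205, a processed_transcript, at 67.1% and 67.7%. For Uqcrh it was Uqcrh-205, a retained_intron transcript, at 52.9% and 49.3%. The layouts disagreed for all 3: kallisto placed 82.7% of Atp5j on the protein_coding Atp5j-203, 69.8% of Cox5b on the protein_coding Cox5b-201 and 96.6% of Uqcrh on the processed_transcript Uqcrh-204.

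The disagreement ran the other way for further genes. Uqcr11 had 97.4% of its RSEM TPM on the protein_coding Uqcr11-201, which was listed at 0 in the kallisto layout. Cox6a1-202, a retained_intron transcript, took 1.19% by RSEM and 89.9% by kallisto layout. Cox7b was split between the protein_coding Cox7b-201 (52.7%) and the retained_intron Cox7b-203 (47.3%), and kallisto placed 99.4% on the latter. Transcripts of classes other than protein_coding took over 50% of RSEM TPM in 3 members and over 50% of kallisto TPM in 10, with Uqcrh in both. The leading transcript took under 50% in 2 members. By the mean of both libraries it was Atp5s-201 in Atp5s, at 34.5% and 22.3%, and Atp5f1-201 in Atp5f1, at 52.2% and 47.6%, beside the nonsense_mediated_decay transcript Atp5f1-203 at 43.7% and 48.1%.

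**Figure D4:**
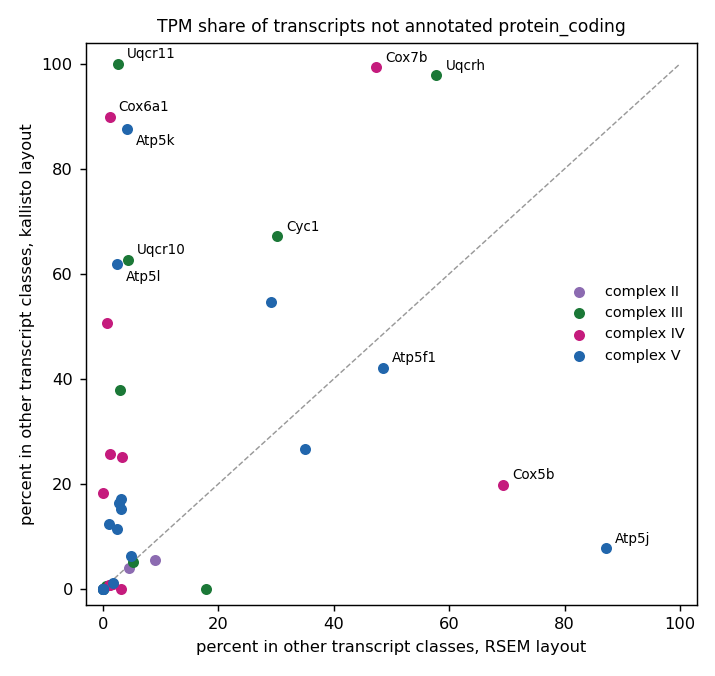
Percent of each member's TPM on transcripts not annotated protein_coding, by RSEM layout (x axis) and by kallisto layout (y axis), as means of both libraries for 41 members. Uqcr11 and Cox6a1 lie at the upper left, Atp5j at the lower right, and Uqcrh high on both axes.

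The libraries gave close values for the members. With counts scaled by TMM, 0 of the 41 members with a mean count of 50 or more lay over 1.2-fold apart, where 10.4% of all genes did (1483 of 14307). Among genes with a mean count of 200 or more, the corresponding figures were 0 of 40 members and 4.54% of genes. For so few members, 0 lies near that share. The members' median absolute log2 ratio was 0.04 and that of all genes 0.07. These medians were not matched for count, since 40 of the 41 members but 11291 of 14307 genes had a mean count of 200 or more. The smaller median is therefore not shown to be particular to the members. Replicate 2 was higher for 26 members and replicate 1 for 15, with a median log2 ratio of 0.01. Of all genes at the same minimum, 50.1% were higher in replicate 2. Whether the members' split differs from that was not tested. Atp5j had the largest fold, 1662 counts in replicate 1 and 1868 in replicate 2, or 1.10-fold (exact 95% interval 1.03 to 1.17). Atp5g2 had the lowest, 0.861-fold (0.632 to 1.17). The remaining 8 members were below the count minimum.

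**Figure D5:**
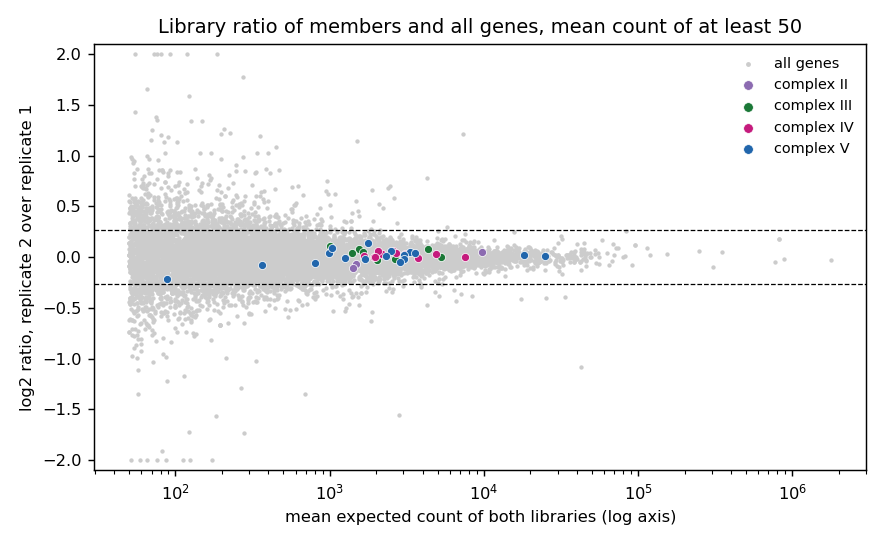
Log2 ratio of replicate 2 over replicate 1 against the mean count (log axis) for genes with a mean count of 50 or more, with members coloured by complex. Dashed lines mark 1.2-fold, and all coloured points lie between them, while 15 other genes are drawn at the axis limit of 2.

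Genes around the complexes were mostly lower than the subunits. Assembly factors of complex II had a median of 11.6 and 12.1 TPM and those of complex III 24.3 and 22.7 TPM. The 22 assembly factors of complex IV had a median of 11.1 and 9.61 TPM, led by the copper chaperone Cox17 at 55.9 ± 4.93 TPM; in the kallisto layout Cox17 was at 60.6 and 60.8 TPM, below Coa3 at 88.5 and 88.9 TPM. Of the 21 with a mean count of 50 or more, Coa4 (75 and 105 counts, 1.37-fold) and Taco1 (242 and 310 counts, 1.25-fold) were over 1.2-fold apart. These 2 of 21 lie near the share of all genes past the same rule, 10.4%. Pet117, below the minimum, had 64 and 15 counts. The ATP synthase inhibitor gene Atpif1 stood apart from the assembly genes of that complex at 175 and 165 TPM. The genes listed outside the symbol rule were at member levels. Ndufa4, a complex IV subunit, was at 274 and 274 TPM, and Usmg5, a membrane subunit of complex V, at 309 and 313 TPM. Higd2a, not counted as a classical structural subunit, was at 70.2 and 66.9 TPM. Cytochrome c, Cycs, was at 17.0 and 17.2 TPM in the RSEM layout and at 188 and 180.5 TPM in the kallisto layout, and its testis form Cyct had 0 counts.

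Of the 6 mitochondrially encoded partners, 5 were above every nuclear member in the RSEM layout. The complex IV core gene mt-Co1 was at 6516 and 6485 TPM, the complex III gene mt-Cytb at 3392 and 3531 TPM, and the complex V gene mt-Atp6 at 2907 and 2933 TPM. mt-Atp6 overlaps mt-Atp8, so their reads may be shared. mt-Co2 was the lowest at 209 and 343 TPM, below the nuclear genes Atp5b, Cox4i1 and Cox8a in both libraries, and it was the 1 gene of these 6 over 1.2-fold apart, by 1.71-fold (1.64 to 1.79). Its level depended on the layout: kallisto gave mt-Co2 1826 and 2198 TPM and listed mt-Atp8 at 0. The 7 core nuclear genes of complex I had a median of 92.0 and 93.5 TPM, between complex II and complex III.

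Promoters of the members were searched for 3 motifs on both strands, in the 250 bases before and 50 after each start in RefSeq (GRCm38.p6). A promoter was matched for 34 members. The NRF1 letters CGCANGCG, named for a regulator of respiratory genes, were found in 15 of 34 (44.1%), against 9.22% of 27025 genes. The ETS family letters CCGGAAG, the core bound by the GABP factor, were found in 12 (35.3%), against 9.93%. The YY1 letters AAGATGGC were found in 2 (5.88%), against 3.19%. Either of the first pair of motifs was in 20 members (58.8%), against 17.3% of genes, and both were in 7. None of the 3 was in the 4 restricted isoforms with a promoter (Cox6b2, Cox7a1, Cox7b2 and Cox8b), and 4 genes are too few to be set against that share. A match is a string of letters and shows no binding. The regulators themselves were modest in level: Nrf1 at 9.74 and 9.05 TPM, Gabpa at 10.5 ± 0.672 TPM and Yy1 at 22.1 and 21.4 TPM, with 0 of 10 regulators over 1.2-fold apart.

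The 250 bases before the start are shown for Cox6a1, which holds both NRF1 and ETS letters, and for the isoform pair Cox6b1, which holds ETS letters, and Cox6b2, which holds none. Capitals mark the motif letters on either strand. All 3 lie on the minus strand (GRCm38.p6), at chr5:115348959-115349208, chr7:30626115-30626364 and chr7:4753095-4753344.
Cox6a1: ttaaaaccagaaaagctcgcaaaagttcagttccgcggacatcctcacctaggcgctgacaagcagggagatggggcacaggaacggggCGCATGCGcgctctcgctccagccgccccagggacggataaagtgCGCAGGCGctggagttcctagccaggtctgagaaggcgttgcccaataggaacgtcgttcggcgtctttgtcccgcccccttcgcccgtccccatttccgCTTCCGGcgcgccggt
Cox6b1: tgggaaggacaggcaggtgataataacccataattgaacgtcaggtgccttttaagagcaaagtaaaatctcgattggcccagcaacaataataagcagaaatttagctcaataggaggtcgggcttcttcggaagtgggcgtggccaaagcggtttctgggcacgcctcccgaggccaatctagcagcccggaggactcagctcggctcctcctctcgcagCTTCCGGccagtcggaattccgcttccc
Cox6b2: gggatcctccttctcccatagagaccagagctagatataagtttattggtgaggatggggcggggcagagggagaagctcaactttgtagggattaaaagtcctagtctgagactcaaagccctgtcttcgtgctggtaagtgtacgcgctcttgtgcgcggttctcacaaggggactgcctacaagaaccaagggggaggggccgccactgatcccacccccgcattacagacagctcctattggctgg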

How the data were processed

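Tables deposited for 2 libraries of 1 group were used. In the deposited RSEM-layout gene table the authors give expected counts, TPM and FPKM, and in their transcript table the percent of a gene's TPM on each transcript. A deposited kallisto-layout table gives estimated counts and TPM. The layouts are called so after their column names, per the file headers. Deposited notes name mm10, the genome of C57BL/6J only, and GENCODE M21, so reads of the CAST/EiJ alleles can differ from the reference; that effect was not tested. Aligner, versions and strandedness were not given in the sources used here, so reads of overlapping genes may be shared.

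Expected counts were rounded, and ERCC and unnamed rows were left out. Library ratios used TMM factors from edgeR 4.0.16 (R 4.3.3), without a test. Intervals are exact 95% binomial intervals. Kallisto-layout transcripts were summed per gene. Effective length was 99 bases under length in the RSEM layout and 335 and 333 in the kallisto layout, which matters for short genes: the members' median length was 694 bases, against 2621 for protein-coding genes. Depth was 35358140 and 36307291 counts. Python 3.11.15, pandas 2.3.3 and scipy 1.17.1 were used, and ratios were checked on simulated data.

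Named members were the 3 highest and the lowest of each complex, isoform pairs, subunit c genes, and those set apart by library, layout or transcript. Others, including Uqcr11, Cox6a1 and Cox7b in the transcript comparison, were added after their values were seen. Members and lists were chosen with earlier results of these data known. Alternatives covered minimums, pseudocounts, DESeq2 1.42.0 size factors, units and layouts.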

Additional observations from a re-analysis of the deposited data

Results flagged for a closer look

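Outside the members, Cox6c2, a processed pseudogene on chromosome 12 that matched the symbols without a protein_coding transcript and copies part of Cox6c, reached 6.79 expected counts in replicate 1. That exceeds the floor of 3 counts used for a gene at 0. It had 0 counts in replicate 2 and 0 in both libraries of the kallisto layout, beside 2639 and 2775 counts of Cox6c.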

How the results depend on the processing

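Detection gave between 40 and 46 members under every alternative tried, and 45 in each library alone. In the kallisto layout the complex medians were 109, 253, 277 and 252 TPM for complexes II, III, IV and V, and as FPKM 54.9, 104.8, 90.9 and 99.2. Complex II was lowest in each. As FPKM the order of the others stayed, and in the kallisto layout it changed. FPKM is proportional to TPM within a library, so its order is no separate check. With members of at least 1 TPM the order changed as well. The median of complex IV was then 145.7 TPM, above complex III at 143.1 and complex V at 138.7 TPM. Each library alone gave medians of 74.7 to 75.3, 142.4 to 143.7, 122.9 to 125.4 and 133.0 to 137.9 TPM. From TPM as deposited, 1 member lay over 1.2-fold apart (Atp5g2). With a mean count minimum of 10 it was 3 (Cox4i2, Cox6a2 and Cox7a1). The other alternatives for that count gave 0. Those 3 genes had 11 to 28 counts per library. The exact intervals of their folds all included 1 (Cox4i2 0.297 to 1.67, Cox6a2 0.441 to 1.44, Cox7a1 0.670 to 2.99). The share of all genes was not computed for deposited TPM or for the minimum of 10. These calls are therefore not shown to set the members apart. The median log2 ratio of isoform pairs was 7.93, or 7.83 to 8.02 by library, 6.82 with a pseudocount of 1 TPM and 8.72 in the kallisto layout. Members held 0.689% of TPM (0.681 to 0.697 by library), 1.56% of protein-coding TPM, 0.397% of counts and 1.36% of kallisto TPM. The members' median layout log2 ratio was -0.19 (-0.21 to -0.16 by library), -0.23 with counts of copies summed, chosen after seeing the data. It reversed to 0.15 from TPM. From counts, protein-coding genes under 600 bases had a median of -0.36 and those of 600 to 1000 bases -0.17, against -0.22 and -0.34 for members of these lengths. From TPM, kallisto over RSEM was 1.83-fold and 1.80-fold for such genes, against 1.67-fold for all protein-coding genes. The ratio is therefore not shown to be particular to the members, and its cause was not tested. No paired analysis was possible because 1 group gives no groups to pair. Traces of restricted isoforms are limited by depth.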
